A study of Mus musculus with 4 samples.

Results

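The macrophage and monocyte genes described here are 10 genes of mononuclear phagocytes, namely Cd68, Adgre1, Ly86, Cst3, Lyz2, Fcgr1, Cx3cr1, Mpeg1, Ctss and Cd14. They were chosen by name, and each matched 1 row of the 46517 genes in the deposited expression table. The mRNA that was sequenced came from LSK cells, a marrow fraction without lineage antigens that carries Sca-1 and c-Kit and contains haematopoietic stem cells and early progenitors. Whether loss of Setd2 alters stem cell quiescence and the choice to differentiate is the question behind the comparison. The knockout cells came from C57BL/6 mice in which Setd2, a histone methyltransferase gene, was knocked out (Setd2D/D, 2 libraries), and the controls from C57BL/6 mice with the floxed but functional gene (Setd2f/f, 2 libraries), all aged 8 to 10 weeks. The sources used here do not give the Cre driver, the deleted exons or how many mice were pooled, and p-values therefore reflect library-to-library spread, which may be technical. Setd2 itself had 43.4 and 49.5 TPM in Setd2D/D, against 78.9 and 68 TPM in Setd2f/f, which did not overlap (log2 change -0.65, limma adjusted p = 0.329). TPM is a length-normalised share of the transcripts of a library, so that levels can be compared between genes. It keeps no read depth, which is unknown, and between 14360 and 14610 genes reached 1 TPM in a library.

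Monocytes and macrophages arise from stem cells through progenitors that lose Kit and gain receptors for colony-stimulating factors, and the Ets factor encoded by Spi1 acts early on this path together with Irf8. Mature phagocytes engulf particles, digest them in lysosomes with proteases such as cathepsins, and sense bacterial products and antibody-coated targets with Toll-like and Fc receptors. Several genes of this programme are transcribed at low level in multipotent progenitors, and others, such as Cst3, are transcribed in most cell types. LSK cells are sorted against lineage antigens that include those of mature myeloid cells. In such bulk libraries, more cells of a type and more RNA per cell cannot be told apart.

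The levels of the 10 genes differed widely. Cst3 was the highest, with a mean of 325 TPM over the 4 libraries, above 97.3% of the genes tested, and Lyz2 followed with 199.9 TPM. Ctss (51.5 TPM), Cd68 (48.5 TPM) and Mpeg1 (47.7 TPM) formed a middle group, and the ranges of neighbours within it overlapped. Ly86 was at 20.3 TPM, Cx3cr1 at 4.47 TPM and Adgre1 at 1.74 TPM, and the ranges of these last 2 overlapped although Cx3cr1 was the higher in each of the 4 libraries. Fcgr1 and Cd14 did not exceed 1.17 and 0.57 TPM in any library, and their ranges overlapped. Expression was thus measured for lysosomal and secreted products of phagocytes, while the defining surface molecules Fcgr1 and Cd14 were close to 0 in both genotypes.

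**Figure D1:**
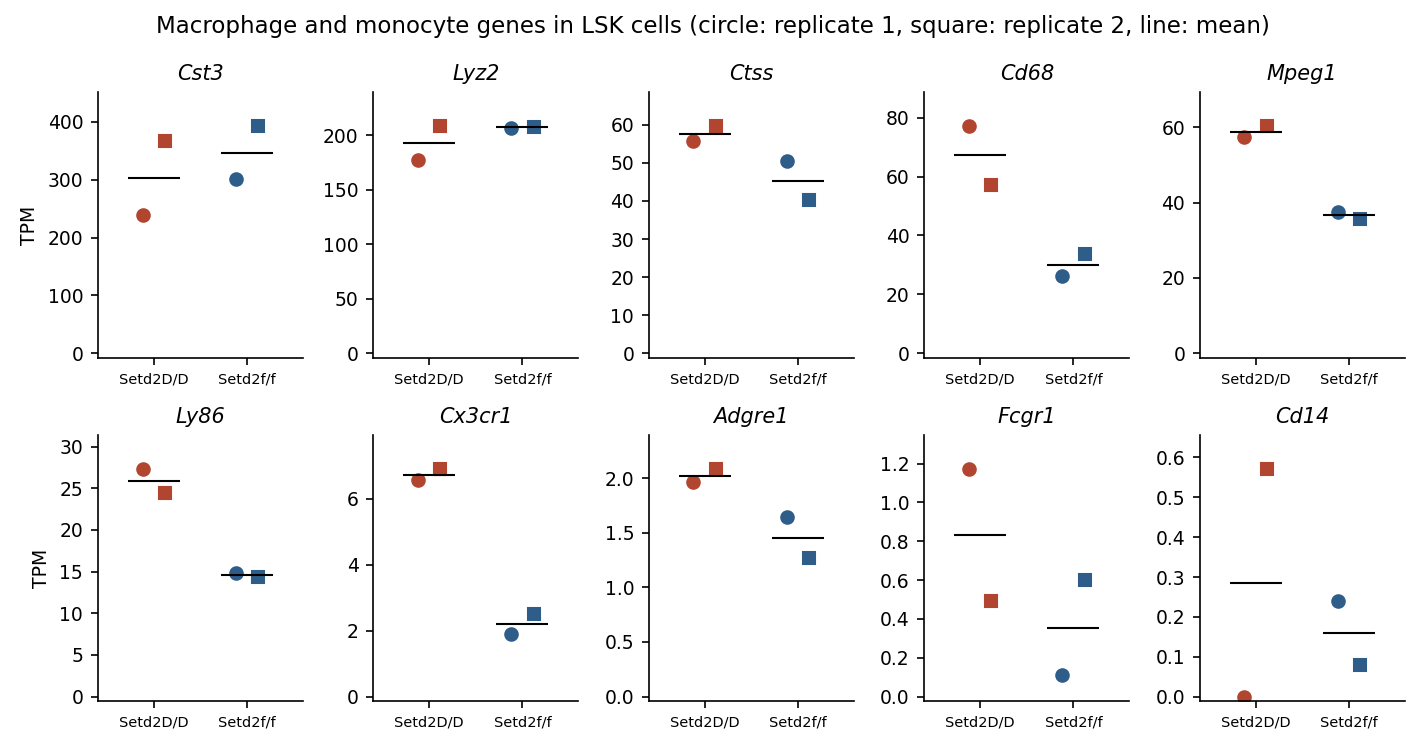
TPM of each of the 10 genes (vertical axis, from 0, own scale per panel) in the Setd2D/D libraries (red, left) and Setd2f/f libraries (blue, right), ordered by mean level. Circles are replicate 1, squares replicate 2 and lines the mean of 2 libraries. In Ctss, Cd68, Mpeg1, Ly86, Cx3cr1 and Adgre1 both red points lie above both blue points, and in the other 4 genes the points overlap.

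Cd68, Mpeg1, Ly86 and Cx3cr1 were between 1.61 and 3.06 times as high in Setd2D/D as in Setd2f/f cells, whereas the most abundant genes, Cst3 and Lyz2, overlapped between the genotypes. Of the 10 genes, 8 had at least 1 TPM in at least 2 libraries and were tested. All 8 did so in each of the 4 libraries, and Fcgr1 and Cd14 were not tested. No member passed limma on log2(TPM + 1) at an adjusted p of 0.05 over the 14755 genes tested (0 higher, 0 lower), where 0.0203% of genes were called higher, 0.0474% lower and 0.0678% in either direction. At an unadjusted p under 0.05, 4 of the 8 were higher and 0 were lower, against 4.17% of tested genes higher and 11.2% in either direction. In the authors' deposited table, 3 of the 10 were higher at an FDR under 0.05 (Cd68, Mpeg1 and Cx3cr1) and 0 were lower, against 1.51% of its 23955 genes higher and 1.64% lower. Both Setd2D/D libraries were above both Setd2f/f libraries for 6 of the 8 genes and below them for 0, against 16.8% and 27.6% of the tested genes. The same shares over all genes apply to the counts of each list below. The median log2 change of the 8 genes was 0.51, and that of all tested genes was -0.06.

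The lysosomal gene Cd68 (chromosome 11, 69664213 to 69666153, minus strand, mm10) encodes a heavily glycosylated membrane protein of the lamp family that marks macrophages in tissue sections. It had 77.1 and 57.3 TPM in the Setd2D/D libraries, against 26.1 and 33.7 TPM in the Setd2f/f libraries. Both Setd2D/D libraries were well above both controls, and their own spread was the widest of the 4 genes with the larger differences. The log2 change was 1.14 (SE 0.22, limma adjusted p = 0.275), with a 95% interval of 0.57 to 1.71. It was 0.93 without Setd2D/D replicate 1, the higher library. The authors' deposited table gives Cd68 a log2 fold change of 1.21 with an FDR of 1.92e-08.

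Mpeg1 (chromosome 19, 12460779 to 12465283, plus strand) encodes a pore-forming protein of the phagosome that attacks engulfed bacteria. It had 57.4 and 60.3 TPM in the Setd2D/D libraries, against 37.4 and 35.8 TPM in the Setd2f/f libraries. The replicates differed by 1.05-fold in each genotype, and the genotypes did not overlap. The log2 change was 0.67 (SE 0.13, limma adjusted p = 0.275). In the authors' deposited table the log2 fold change is 0.73 with an FDR of 6.56e-06.

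Ctss and Cst3 encode a protease and its inhibitor. Cathepsin S, the product of Ctss, cleaves the invariant chain in antigen-presenting cells, and cystatin C, the product of Cst3, is a secreted inhibitor of cysteine cathepsins. Ctss had 55.7 and 59.6 TPM in the Setd2D/D libraries, against 50.4 and 40.1 TPM in the Setd2f/f libraries. The genotypes did not overlap, but the gap between them was smaller than the distance between the Setd2f/f libraries. The log2 change was 0.35 (SE 0.16, limma adjusted p = 0.494), and leaving out a Setd2f/f library gave 0.51 (replicate 1) or 0.19 (replicate 2). Cst3 had 239 and 367 TPM in the Setd2D/D libraries, against 301 and 392 TPM in the Setd2f/f libraries. Here the replicates differed by 1.53-fold in Setd2D/D and 1.30-fold in Setd2f/f, more than the genotypes did (log2 change -0.21, SE 0.25, limma adjusted p = 0.786, 95% interval -0.86 to 0.44).

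Lyz2 encodes the lysozyme of myeloid cells, and its promoter is widely used to drive Cre in macrophages and neutrophils. It had 177 and 208 TPM in the Setd2D/D libraries, against 206 and 208 TPM in the Setd2f/f libraries. Setd2D/D replicate 1 was the low one, and the other 3 libraries were nearly equal (log2 change -0.11, SE 0.12, limma adjusted p = 0.768, 95% interval -0.41 to 0.20). Its near-identical neighbour Lyz1, the lysozyme gene of intestinal Paneth cells, had 0.22 and 0.37 TPM in the Setd2D/D libraries, against 0.04 and 0 TPM in the Setd2f/f libraries. How reads were shared between both copies is not stated, so the value of Lyz2 is uncertain to that extent. With the pair summed, the log2 change of Lyz2 was -0.11 again. Cst3 and Lyz2 held 64.7% and 73.1% of the summed TPM of the 10 genes in the Setd2D/D libraries, against 79.3% and 82.4% in the Setd2f/f libraries. Over all 10 genes the summed level was 644 and 787 TPM in Setd2D/D and 640.0 and 729 TPM in Setd2f/f. Without these genes, the other 8 summed to 227 and 212 TPM in Setd2D/D, against 133 and 128 TPM in Setd2f/f.

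**Figure D2:**
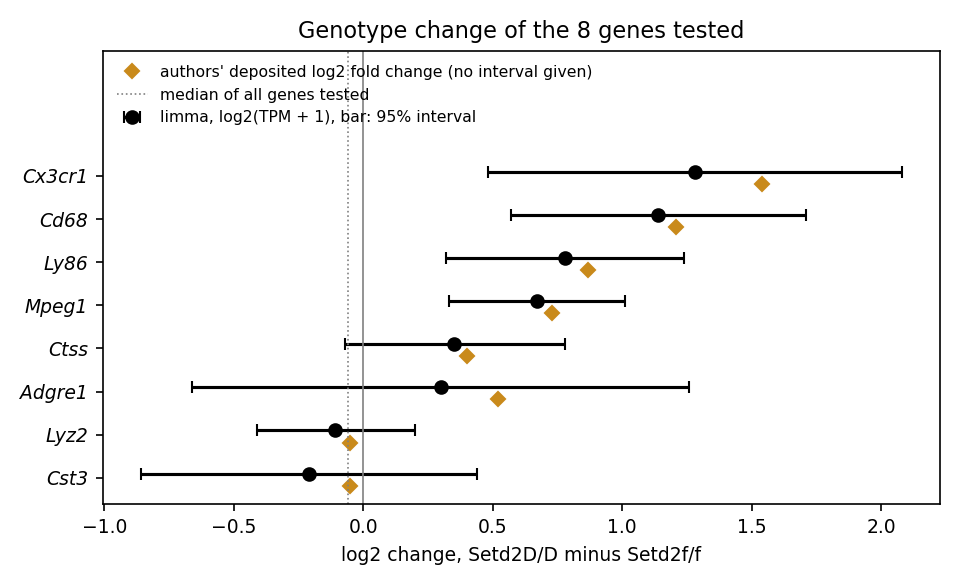
Log2 change on the log2(TPM + 1) scale, Setd2D/D minus Setd2f/f (horizontal axis), of the 8 genes tested. Black points and bars are limma estimates with 95% intervals, diamonds are the authors' deposited log2 fold changes, and the dotted line is the median of all genes tested. The intervals of Cx3cr1, Cd68, Ly86 and Mpeg1 lie above 0, and those of the other 4 genes include 0.

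Among receptors, Cx3cr1, which binds the membrane-tethered chemokine fractalkine and marks patrolling monocytes and many tissue macrophages, had the largest log2 change of the 8 genes. It had 6.57 and 6.90 TPM in the Setd2D/D libraries, against 1.89 and 2.51 TPM in the Setd2f/f libraries. The Setd2D/D libraries were close together and far above both controls. The log2 change was 1.28 (SE 0.31, limma adjusted p = 0.336), and the authors' deposited table gives 1.54 with an FDR of 0.0153. The GENCODE model of Cx3cr1 (chromosome 9, 119901616 to 120069879, minus strand) spans several other genes, of which Wdr48 on the opposite strand was the highest, with 42.1 and 44.8 TPM in Setd2D/D and 39.1 and 40.9 TPM in Setd2f/f. Whether the libraries kept RNA strand is not stated, so reads of Cx3cr1 and its overlapping genes could not be told apart with certainty. The gene of the ligand, Cx3cl1, had 0.63 and 5.12 TPM in Setd2D/D and 1.37 and 0.59 TPM in Setd2f/f, which overlapped.

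Adgre1 encodes the adhesion receptor whose antibody is the standard stain for mouse macrophages. It had 1.96 and 2.08 TPM in the Setd2D/D libraries, against 1.64 and 1.27 TPM in the Setd2f/f libraries. The genotypes did not overlap, at levels where the pseudocount damps the change (log2 change 0.30, SE 0.37, limma adjusted p = 0.796, 95% interval -0.66 to 1.26). The receptor Fcgr1, which binds monomeric IgG with high affinity, had 1.17 and 0.49 TPM in the Setd2D/D libraries, against 0.11 and 0.60 TPM in the Setd2f/f libraries. Cd14, the endotoxin co-receptor of monocytes, was listed at 0 and had 0.57 TPM in the Setd2D/D libraries, against 0.24 and 0.08 TPM in the Setd2f/f libraries. Both overlapped between genotypes. The authors' deposited table gives these 2 genes mean log2 CPM of -0.90 and -1.80, so that few reads stand behind them and a difference was not detectable.

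Ly86 and its receptor partner differed in opposite directions. Ly86 (chromosome 13, 37345208 to 37419036, plus strand) encodes a secreted protein that pairs with the product of Cd180, a Toll-like receptor relative that tunes endotoxin responses in B cells and myeloid cells. Ly86 had 27.3 and 24.5 TPM in the Setd2D/D libraries, against 14.9 and 14.4 TPM in the Setd2f/f libraries (log2 change 0.78, SE 0.18, limma adjusted p = 0.327). Cd180 had 12.9 and 10.98 TPM in the Setd2D/D libraries, against 23.2 and 21.5 TPM in the Setd2f/f libraries (log2 change -0.85, SE 0.20, limma adjusted p = 0.329). The ratio of Ly86 to Cd180, chosen after the values were seen, was 2.11 and 2.23 in Setd2D/D, against 0.639 and 0.671 in Setd2f/f. Neither gene overlapped between the genotypes. In the authors' deposited table Cd180 has a log2 fold change of -0.84 with an FDR of 0.00503, whereas Ly86 has 0.87 with an FDR of 0.233.

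The related pair of Tlr4, the endotoxin receptor, and Ly96, the subunit that binds the lipid, was low. Tlr4 had 4.32 and 5.40 TPM in the Setd2D/D libraries, against 8.36 and 6.86 TPM in the Setd2f/f libraries (log2 change -0.56, limma adjusted p = 0.527), but the authors' deposited table gives it a log2 fold change of only -0.06. Ly96 was listed at 0 in Setd2D/D replicate 1, where replicate 2 had 11.04 TPM, against 6.69 and 4.76 TPM in the Setd2f/f libraries. Among the 20 genes of Toll-like receptors and their signalling, 0 passed limma over all genes, with a median log2 change of -0.14. Unc93b1, which carries endosomal Toll-like receptors to their compartment, had 123 and 119 TPM in Setd2D/D, against 108 and 101 TPM in Setd2f/f, and Nfkb1 had 113 and 126 TPM in Setd2D/D, against 151 and 139.6 TPM in Setd2f/f. The authors' deposited table has none of the 20 higher (0) and 2 lower, Cd180 and, named after its value was seen, Tlr7.

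**Figure D3:**
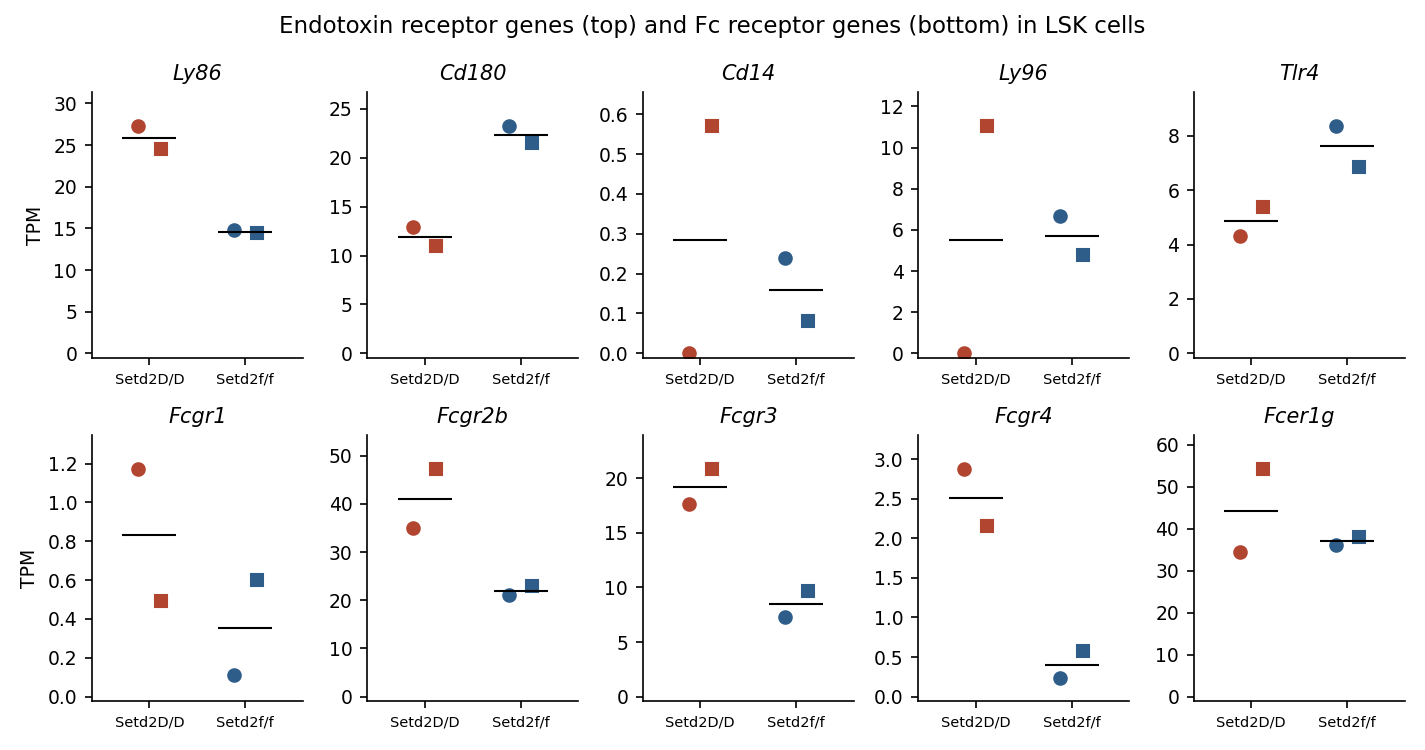
TPM (vertical axis, from 0, own scale per panel) of genes of endotoxin recognition (upper row) and of Fc receptors (lower row) in the Setd2D/D libraries (red, left) and Setd2f/f libraries (blue, right). Circles are replicate 1, squares replicate 2 and lines the mean. Ly86 is higher and Cd180 lower in both Setd2D/D libraries, and Fcgr2b, Fcgr3 and Fcgr4 are higher while Fcgr1 and Fcer1g overlap.

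The other Fc receptor genes differed in both directions. Fcgr2b, the inhibitory receptor, had 35 and 47.2 TPM in the Setd2D/D libraries, against 21.1 and 22.9 TPM in the Setd2f/f libraries. Fcgr3, an activating receptor of low affinity, had 17.7 and 20.8 TPM in Setd2D/D, against 7.32 and 9.67 TPM in Setd2f/f. Fcgr4 had 2.87 and 2.15 TPM in Setd2D/D, against 0.23 and 0.58 TPM in Setd2f/f. Each of these 3 genes was higher in both Setd2D/D libraries. The limma adjusted p was 0.329 for Fcgr2b and 0.320 for Fcgr3. Fcgr4 reached 1 TPM in the Setd2D/D libraries alone, so that it passed the filter only through the libraries where it was higher. No p-value is therefore given for Fcgr4, although it counts among the 14 pathway genes below. Tlr9, Ccr1 and Maf passed the filter in the same way. They count in the medians of the Toll-like receptor, chemokine and regulator genes. Fcgrt, the neonatal Fc receptor gene, named after its values were seen, was lower, with 8.98 and 7.93 TPM in Setd2D/D, against 12.6 and 11.7 TPM in Setd2f/f (limma adjusted p = 0.504). Fcer1g, the signalling chain that these activating receptors and Fcgr1 share, overlapped between the genotypes, with 34.5 and 54.1 TPM in Setd2D/D and 36.1 and 37.9 TPM in Setd2f/f. Over the 14 genes of the Fc receptor pathway the median log2 change was 0.00, with 0 past limma, and the authors' deposited table has 2 higher (Fcgr2b and Fcgr3) and 0 lower.

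Other lysosomal genes were mixed. Of 25 lysosomal hydrolase and cystatin genes, 23 were tested, 0 passed limma, and the median log2 change was 0.02. Both Setd2D/D libraries were above both Setd2f/f libraries for 7 of the 23 and below them for 4, against the 16.8% and 27.6% of all tested genes given above. The authors' deposited table has 2 of the 25 higher, Ctsh among them, and 2 lower, Cst7 among them. Ctsh, a cathepsin with aminopeptidase activity, had 41.0 and 44.8 TPM in Setd2D/D, against 29.4 and 25.7 TPM in Setd2f/f. Ifi30, a lysosomal thiol reductase of antigen-presenting cells, had 23.4 and 32.2 TPM in Setd2D/D, against 15.6 and 17.6 TPM in Setd2f/f. Cst7, which encodes a cystatin of natural killer cells and myeloid progenitors, had 39.0 and 18.3 TPM in Setd2D/D, against 56.3 and 65.6 TPM in Setd2f/f, the opposite direction. The genotypes overlapped for none of these 3 genes, and the limma adjusted p was between 0.344 and 0.415.

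Genes that mark classical monocytes were, among the lists compared, the closest to the macrophage and monocyte genes in median log2 change, at 0.50 over 12 tested genes. No gene of the list passed limma. The authors' deposited table has 6 of 14 higher and 0 lower, against 1.51% and 1.64% of its 23955 genes. Both Setd2D/D libraries were above both Setd2f/f libraries for 7 of the 12 tested, against 16.8% of all tested genes. Another 4 overlapped, Csf1r, Chil3, Gpr141 and Clec4e. The most abundant gene of the list, Plac8, was below, with 978 and 1093 TPM in Setd2D/D, against 1130 and 1208 TPM in Setd2f/f. F13a1, a coagulation factor gene, had 42.2 and 52.0 TPM in Setd2D/D, against 10.4 and 10.3 TPM in Setd2f/f (limma adjusted p = 0.0942). Ms4a4c, a membrane protein gene, had 18.9 and 19.9 TPM in Setd2D/D, against 4.85 and 1.12 TPM in Setd2f/f, and Ms4a6c of the same family had 62.0 and 78.3 TPM in Setd2D/D, against 37.2 and 41.4 TPM in Setd2f/f. Among chemokine genes, Ccr2, the receptor by which monocytes leave the marrow, had 13.2 and 20.5 TPM in Setd2D/D, against 6.02 and 5.33 TPM in Setd2f/f, and Ccl6 had 16.5 and 13.4 TPM in Setd2D/D, against 2.93 and 3.37 TPM in Setd2f/f. Ccl3 was lower instead, with 9.54 and 11.96 TPM in Setd2D/D, against 24.7 and 23.3 TPM in Setd2f/f. The 14 tested chemokine and adhesion genes had a median log2 change of 0.27, with 0 past limma, while the authors' deposited table has 3 of 15 higher and 1 lower.

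The lineage regulators Spi1, Irf8 and Csf1r overlapped between the genotypes. Spi1 had 138 and 163 TPM in Setd2D/D and 131 and 166 TPM in Setd2f/f. Irf8 had 74.6 and 92.1 TPM in Setd2D/D and 79.3 and 70.7 TPM in Setd2f/f. Csf1r, the receptor for macrophage colony-stimulating factor, had 17.0 and 10.2 TPM in Setd2D/D and 10.5 and 13.1 TPM in Setd2f/f. Over 17 tested regulators the median log2 change was 0.22 with 0 past limma, and the authors' deposited table has 1 of 19 higher (Csf2ra) and 0 lower. Csf2ra, a chain of the granulocyte-macrophage colony-stimulating factor receptor, had 42.4 and 51.5 TPM in Setd2D/D, against 35.4 and 33.2 TPM in Setd2f/f. Id2, an inhibitor of helix-loop-helix factors, had 19.97 and 15.9 TPM in Setd2D/D, against 13.8 and 10.6 TPM in Setd2f/f. Klf4, a factor needed for monocyte formation in mice, had 4.99 and 5.91 TPM in Setd2D/D, against 3.46 and 0.96 TPM in Setd2f/f.

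Markers of mature resident macrophages were low apart from Apoe, which had a mean of 145.9 TPM over the 4 libraries. The next highest was Hmox1, with a mean of 16.6 TPM. Of 22 such genes 9 were not tested, and 6 stayed under 1 TPM in every library, Mertk, Timd4, Trem2, Marco, Gpnmb and Adgre4. The median log2 change of the 13 tested was 0.10, with 0 past limma, and 1 gene, Apoe, was higher in the authors' deposited table. Apoe, which encodes a lipid carrier, had 150.01 and 223 TPM in Setd2D/D, against 91 and 119.99 TPM in Setd2f/f. Aif1, an actin-binding protein gene of macrophages, had 9.46 and 8.61 TPM in Setd2D/D, against 2.6 and 3 TPM in Setd2f/f. Hmox1, the heme-degrading enzyme gene, had 12.2 and 12.6 TPM in Setd2D/D, against 19.3 and 22.4 TPM in Setd2f/f.

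Markers of some other cell types also differed between the genotypes, and their part in the result was not tested. The 18 dendritic cell genes summed to 760 and 717 TPM in the Setd2D/D libraries, against 618 and 506 TPM in the Setd2f/f libraries. The authors' deposited table has 4 of them higher and 0 lower, against 1.51% and 1.64% of its 23955 genes. H2-Aa, a class II chain gene, had 107 and 113 TPM in Setd2D/D, against 40.8 and 37.9 TPM in Setd2f/f. H2-Eb1 and Cd74 of the same pathway were higher in both Setd2D/D libraries too (ratios of means 2.83 and 1.82). The median log2 change of the 14 tested dendritic cell genes was 0.16. Both Setd2D/D libraries were above both Setd2f/f libraries for 5 of them, against 16.8% of all tested genes. The 5 were Clec9a, H2-Aa, H2-Ab1, H2-Eb1 and Cd74. Both were below for 3, Ccr7, Ccr9 and Flt3, against 27.6% of all tested genes. Flt3 had 276 and 223 TPM in Setd2D/D, against 332 and 279 TPM in Setd2f/f. The 14 neutrophil granule genes summed to 3055 and 4738 TPM in Setd2D/D and 2529 and 3148 TPM in Setd2f/f, which overlapped, and their median log2 change was -0.17. The authors' deposited table has 3 of them higher, Mpo, Elane and Ctsg, granule protein genes of early neutrophil precursors (ratios of mean TPM 1.88, 2.11 and 1.77). It has 2 lower, Ngp and Ltf, granule protein genes of later neutrophils. Ngp had 24.6 and 98.8 TPM in Setd2D/D, against 103 and 136 TPM in Setd2f/f, and Ltf had 14.2 and 40.95 TPM in Setd2D/D, against 54.9 and 75.3 TPM in Setd2f/f. Of the 13 granule genes tested, 8 overlapped between the genotypes, as did 8215 of all 14755 genes tested. Among the 8 were Prtn3, Camp, Lcn2, S100a8 and S100a9. The FDR of these named genes in the authors' deposited table was between 0.128 and 0.984. The 18 genes of other lineages summed to 615 and 650.0 TPM in Setd2D/D, against 566 and 530.0 TPM in Setd2f/f, with 3 higher and 4 lower in the same table, and Cd3e, Cd8a and Cdh5 stayed under 1 TPM in every library. Klf1, an erythroid factor gene, had 19.1 and 19.7 TPM in Setd2D/D, against 4.55 and 4.6 TPM in Setd2f/f, and the platelet gene Pf4 and the mast cell gene Cpa3 were also higher in both Setd2D/D libraries (ratios of means 3.26 and 1.77). The 12 genes of the sorting gate and of stem cells summed to 1833 and 1708 TPM in Setd2D/D, against 2269 and 2110 TPM in Setd2f/f, with 0 higher and 3 lower in the same table, Ly6a and Cd34 among the 3. Ly6a, the gene of the gate antigen Sca-1, had 46.5 and 80.6 TPM in Setd2D/D, against 128 and 124 TPM in Setd2f/f (log2 change -1.02, limma adjusted p = 0.370). Cd34 and Cd48 were lower in both Setd2D/D libraries, although Cd48 has an FDR of 0.123 in the authors' deposited table. Kit was at 301 and 285 TPM in Setd2D/D, against 224 and 249 TPM in Setd2f/f, and the myeloid lineage antigen gene Itgam had 17.7 and 20.3 TPM in Setd2D/D, against 22.9 and 21.1 TPM in Setd2f/f.

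**Figure D4:**
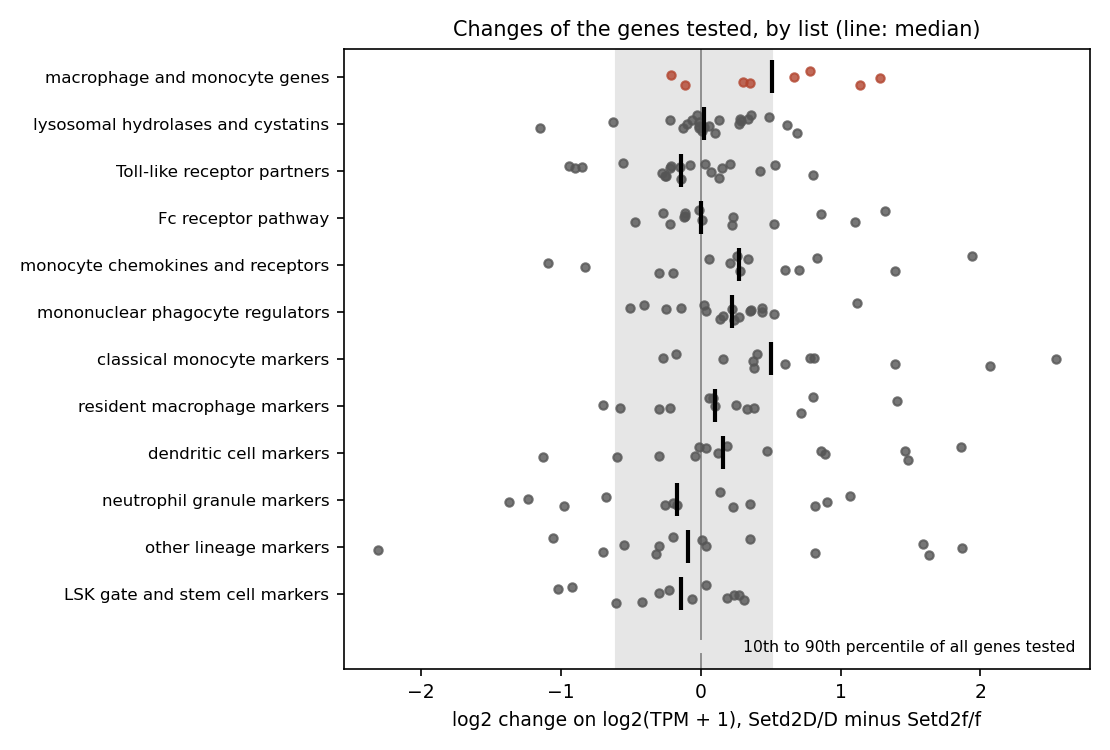
Log2 change on the log2(TPM + 1) scale, Setd2D/D minus Setd2f/f (horizontal axis), of each gene tested, by list (rows). Points are genes, black lines the median of each list, and the grey band runs from the 10th to the 90th percentile of all genes tested (-0.60 to 0.51). The macrophage and monocyte genes (red) and the classical monocyte markers have medians of 0.51 and 0.50, and the other medians lie between -0.17 and 0.27.

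The Setd2D/D libraries differed from each other (r = 0.91 across genes) more than the Setd2f/f libraries did (r = 0.96), and the correlations between genotypes ran from 0.91 to 0.94. Without Setd2D/D replicate 1 the median log2 change of the 8 genes was 0.55, and without Setd2D/D replicate 2 it was 0.47. The median deviation of the 8 genes from their means was 0.21 and 0.27 on the log2 scale in the Setd2D/D libraries, against -0.19 and -0.35 in the Setd2f/f libraries. 

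The 5 genes most like Cd68 over the 4 libraries, by the root mean square difference of log2(TPM + 1) values centred on each gene's mean, were Fam46a, B3gnt7, Vwf, the gene model RP23-353M17.4 and Dnhd1. Their differences were between 0.077 and 0.124. Candidates were the 11248 genes with a mean of at least 5 TPM, counted before models with Gm, Rik, AC, AL or BC number names were passed over. Fam46a, a poly(A) polymerase gene, had 20.1 and 16.2 TPM in Setd2D/D, against 7.52 and 9.18 TPM in Setd2f/f. Vwf, the gene of von Willebrand factor, which platelets, endothelium and some stem cells make, had 11.2 and 8.36 TPM in Setd2D/D, against 4.09 and 4.75 TPM in Setd2f/f. 

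The promoters of the 4 genes with the larger differences, and of Cst3 as the abundant gene without one, are shown to compare their sequences over 1 motif. They run 5′ to 3′ from 250 bases before to 50 after the RefSeq start on GRCm38.p6. Capitals mark GAGGAA, a sequence that the Ets factor encoded by Spi1 binds, on either strand (TTCCTC when it lies on the other). Shorter or variant forms of this sequence were not searched. The regions are chr11:69666121-69666420 (minus strand) for Cd68, chr19:12460520-12460819 (plus) for Mpeg1, chr13:37345095-37345394 (plus) for Ly86, chr9:120068247-120068546 (minus) for Cx3cr1 and chr2:148875463-148875762 (minus) for Cst3.
Cd68: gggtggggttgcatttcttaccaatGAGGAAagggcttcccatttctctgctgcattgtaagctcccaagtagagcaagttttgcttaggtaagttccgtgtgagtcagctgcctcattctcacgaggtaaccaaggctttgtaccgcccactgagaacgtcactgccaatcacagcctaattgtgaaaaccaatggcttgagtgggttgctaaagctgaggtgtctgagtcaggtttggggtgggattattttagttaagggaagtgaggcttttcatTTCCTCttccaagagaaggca
Mpeg1: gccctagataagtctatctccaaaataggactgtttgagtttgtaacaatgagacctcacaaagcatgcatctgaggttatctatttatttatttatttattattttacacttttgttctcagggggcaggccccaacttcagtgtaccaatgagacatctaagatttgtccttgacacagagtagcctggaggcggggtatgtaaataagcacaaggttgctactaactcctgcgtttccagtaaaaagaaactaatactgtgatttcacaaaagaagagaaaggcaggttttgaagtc
Ly86: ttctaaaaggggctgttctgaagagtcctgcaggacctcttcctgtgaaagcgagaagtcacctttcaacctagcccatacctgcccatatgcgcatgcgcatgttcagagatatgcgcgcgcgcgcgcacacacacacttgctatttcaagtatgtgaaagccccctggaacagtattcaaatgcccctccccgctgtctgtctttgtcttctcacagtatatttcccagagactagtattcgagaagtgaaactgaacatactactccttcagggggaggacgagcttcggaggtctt
Cx3cr1: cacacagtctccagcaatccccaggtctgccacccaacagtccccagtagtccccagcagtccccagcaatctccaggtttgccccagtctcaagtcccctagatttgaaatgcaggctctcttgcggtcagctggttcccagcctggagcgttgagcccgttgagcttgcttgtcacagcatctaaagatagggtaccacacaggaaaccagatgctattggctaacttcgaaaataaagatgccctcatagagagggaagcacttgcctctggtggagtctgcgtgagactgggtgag
Cst3: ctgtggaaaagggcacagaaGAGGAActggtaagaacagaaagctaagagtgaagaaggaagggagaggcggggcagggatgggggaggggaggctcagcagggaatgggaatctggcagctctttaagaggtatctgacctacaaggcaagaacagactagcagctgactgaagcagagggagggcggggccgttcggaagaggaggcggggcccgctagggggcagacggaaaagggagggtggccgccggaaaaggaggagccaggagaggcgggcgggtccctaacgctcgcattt

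Cd68 held the motif at position -225 and, on the other strand, at position 29 from its start, and Cst3 held it once, at position -230. Mpeg1, Ly86 and Cx3cr1 held no match in this window. For Cd68 and Mpeg1 the bases at the RefSeq start were not found in a GENCODE transcript of the gene, so their positions hold for the RefSeq start only. RefSeq promoters were found for 8 of the 10 genes, and 4 of them (Cd68, Cst3, Ctss and Fcgr1) held the motif on either strand, against 28.3% of 32851 promoters of the same length. A match is a description of these letters and not a site.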

How the data were processed

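The authors deposited TPM values, scaled to the same sum in each library, for 46517 genes in 4 libraries, and a table of the comparison with a fold change as a ratio, log2 fold change, mean log2 CPM, F score, p-value and FDR for 23955 genes. Per the submitters' processing notes, cutadapt, RSEM, edgeR and the mm10 build were used, with roles and versions not given in the sources used here. TPM hold no read depth, which is unknown. In 5 rows of the first table and 2 of the second, names with commas broke the columns, and these rows were rejoined.

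The 14755 genes that reached 1 TPM in 2 or more libraries were transformed to log2(TPM + 1) and fitted in limma 3.58.1 (R 4.3.3) with a genotype term, trended moderation, 2-sided tests and Benjamini-Hochberg adjustment over all genes at 0.05. Such fold changes understate the change of low genes. An exact permutation test of 2 against 2 libraries cannot go below p = 0.33. The code was tested on simulated data. Members and lists were chosen with earlier results of these data known. Each list's 3 genes of smallest p, among those averaging 1 TPM or more, are named, beside fixed partners, except where a gene is not reported here. Other genes named were chosen after their values were seen. Coordinates come from GENCODE M21 on GRCm38 and promoters from RefSeq. Alternatives were other pseudocounts, filters, scalings and moderation, blocking by replicate number, and leaving out each library.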

Additional observations from a re-analysis of the deposited data

How the results depend on the processing

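No member passed an adjusted p of 0.05 in limma under any of the 14 alternatives. Cd68 (0.93 to 1.35), Mpeg1 (0.64 to 0.74), Ly86 (0.71 to 0.86), Cx3cr1 (1.14 to 1.58), Ctss (0.19 to 0.51) and Adgre1 (0.19 to 0.46) kept their direction throughout, with adjusted p between 0.181 and 0.949. With 1 library left out, the lone library of its genotype was assumed to vary like the other pair. The median log2 change of the members was then between 0.42 and 0.61. It was 0.39 with no filter, which adds Fcgr1 and Cd14, and 0.67 with a minimum of 5 TPM, which removes Adgre1. Over all genes, 10 passed, against 3 at a pseudocount of 0.1, 0 with no filter, 19 without the trend, 0 with the replicate block and between 0 and 0 with 1 library left out. Replicate numbers were not taken to pair the libraries, since no label says so and the deviations of equal numbers correlated at 0.041 over genes. The summed level, a ratio of 1.05, was 1.08 and 1.09 after rescaling. With 1 library left out, the log2 change crossed 0 for Cst3 (-0.52 to 0.10), Lyz2 (-0.22 to 0.01), Spi1 (-0.15 to 0.19), Irf8 (-0.01 to 0.29), Csf1r (-0.18 to 0.50), Fcer1g (-0.10 to 0.54), Cx3cl1 (-0.25 to 1.66) and Ly96 (-2.73 to 0.86). The cause was not tested.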

Other observations

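Among adhesion and complement genes of phagocytes, 4 are described here, named after their values were seen. Itgal, an integrin chain gene, had 25.4 and 36.3 TPM in Setd2D/D, against 51.8 and 57.8 TPM in Setd2f/f. C1qa, a subunit gene of the first complement component and a defining transcript of resident macrophages, had 4.22 and 5.13 TPM in Setd2D/D, against 7.92 and 7.07 TPM in Setd2f/f. C1qb had 5.6 and 6.18 TPM in Setd2D/D, against 7.72 and 6.4 TPM in Setd2f/f, so that C1qa and C1qb were lower in both Setd2D/D libraries. C1qc had 7.71 and 5.19 TPM in Setd2D/D and 7.5 and 4.81 TPM in Setd2f/f, which overlapped. None of these 4 genes passed limma over all genes tested, while the authors' deposited table gives Itgal a log2 fold change of -0.76 with an FDR of 3e-06.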
